A study of Mus musculus with 32 samples.

Results

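The genes described here are chaperones of the heat shock response and Chordc1, measured in the lung and the trachea of mice with and without the gene Car6. They are the genes Hsph1, Hspa8, Dnaja1, Dnajb1, Hsp90aa1, Hsp90ab1, Chordc1, Hspd1, Hspe1 and Hspb1, taken by their symbol in the array's probe annotation. Of these 10 genes, 9 had a probe under that symbol, out of 16593 genes named on the array. They had 13 of the 25697 probes, and none carried the symbol Hsp90ab1. Car6 encodes carbonic anhydrase VI, a secreted enzyme that interconverts carbon dioxide and bicarbonate, and Car6-/- mice lack the gene. The groups were lung of Car6-/- mice (n = 6) and of wild-type mice (n = 8), and trachea of Car6-/- mice (n = 6) and of wild-type mice (n = 8). All mice were males of the C57BL/6 strain aged 2 months, with no treatment given in the labels, and biotin-labelled copies of 150 ng RNA were read on Illumina bead arrays. Samples are numbered within genotype and tissue, with no word on whether equal numbers mark the same animal. The labels do not give the design of the Car6 allele or say whether the wild-type mice were littermates.

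Chaperones bind unfolded proteins and keep them from clumping. The cytosolic HSP70 system (Hspa8) works in a cycle with J proteins (Dnaja1, Dnajb1), which deliver clients, and with nucleotide exchange factors (Hsph1), which release them, and it hands many clients on to HSP90 (Hsp90aa1, Hsp90ab1) and its partners, among them the CHORD-domain protein of Chordc1. In stressed cells the transcription factor HSF1 binds heat shock elements, repeats of GAA and its reverse complement TTC, and switches on many of these genes together. In airway and lung, as in other tissues, they are expressed without stress as well, and their level is known to follow temperature and oxidative load.

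The promoter sequences are shown first, because the heat shock element is what several of these genes share at the DNA level. The selection by symbol did not search for it. Since these genes are known for the heat shock response, finding it in some of them was likely beforehand and is given as description. RefSeq promoter windows, from 250 bases before to 50 bases after each annotated start (GRCm38.p6), were at hand for 7 of the 10 genes, with 12 starts in all. Hspa8, Hsp90aa1 and Hsp90ab1 are named only. Both strands were searched for 3 units of the element (GAANNTTCNNGAA or TTCNNGAANNTTC, N being any base) and for 2 units (GAANNTTC or TTCNNGAA), which every match of 3 units also holds. The 3-unit form was found in windows of Hsph1, Chordc1, Hspd1 and Hspe1. Of all 32851 windows in the table, 0.603% held it, and 15.1% held the 2-unit form. Capitals mark the bases covered by 3-unit matches, and the 3 stretches below are printed because their genes had the largest genotype differences in both tissues (Hsph1, Chordc1) or share 1 element (Hspd1 with Hspe1).
Hsph1 (chr5:149636287-149636316, minus strand): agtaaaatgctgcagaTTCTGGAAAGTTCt
Chordc1 (chr9:18292147-18292291, plus strand): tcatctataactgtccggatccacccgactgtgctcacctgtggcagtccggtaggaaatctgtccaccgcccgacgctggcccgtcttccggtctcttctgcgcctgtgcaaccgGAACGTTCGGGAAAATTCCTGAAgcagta
Hspe1 (chr1:55087998-55088118, plus strand): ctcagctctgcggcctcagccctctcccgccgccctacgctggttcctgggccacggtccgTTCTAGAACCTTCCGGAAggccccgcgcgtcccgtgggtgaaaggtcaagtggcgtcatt
In Chordc1, 3 overlapping matches made 1 run of 23 bases across the start, from base -4 to base 19, where the first transcribed base is 1. The Hsph1 match of 13 bases lay after the start, at bases 37 to 49 from 1 of the 2 annotated starts, and the window of the other start holds the same genomic site. Hspd1 and Hspe1 are transcribed away from each other, and their windows hold the same 18 bases, at -89 to -72 from the Hspe1 start and -144 to -127 from 1 of the 2 Hspd1 starts. The window of Hspb1 held the 2-unit form at 2 places, and 1 of 3 windows of Dnaja1 held it once. Neither window of Dnajb1 held any match. A match describes letters in these windows, not binding.

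**Figure D1:**
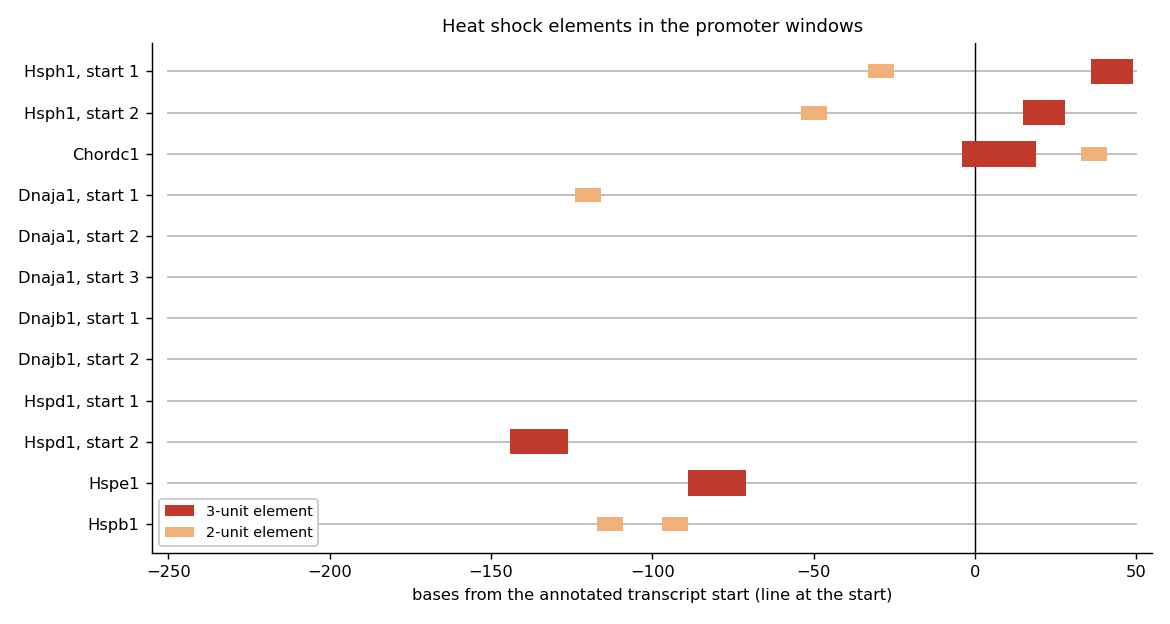
Positions of 3-unit (red, tall) and 2-unit (orange, low) heat shock elements in the RefSeq promoter windows of 7 genes, in bases from the annotated transcript start. The 3-unit form appears in windows of Hsph1, Chordc1, Hspd1 and Hspe1, and Dnajb1 shows no match at either start.

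The 32 arrays cover 28 samples, and the 4 samples with a second array entered as the mean of both. Arrays detected 11735 to 13139 probes. The second array differed from the first by 0.23 to 0.26 (root mean square, log2) in 3 samples, less than from any other sample, and by 0.37 in wild-type trachea 2, whose nearest other sample lay at 0.34. The only Car6 probe was detected on 0 of 32 arrays, so that the genotype labels could not be checked by it. A group is said to carry a marker detected in at least as many of its samples as not. Lungs carried all 8 markers of alveolar type 2 cells and 0 of 9 cartilage markers, while tracheas carried 6 of 9 cartilage markers. Car6-/- tracheas carried 5 and wild-type tracheas 4 of the 8 alveolar type 2 markers. Lungs of either genotype carried 8 of the 15 skeletal muscle markers with a probe. Wild-type tracheas also carried 15 skeletal muscle markers (Acta1 and Ckm among them) and 7 thyroid markers (Tg and Slc5a5 among them). The mean thyroid marker level was 4.66, 4.52, 7.00 and 4.64 in Car6-/- tracheas 1, 2, 6 and 7, and 8.73 and 9.13 in Car6-/- tracheas 4 and 5, against 8.03 to 9.30 in wild-type tracheas. Alveolar type 2 markers stood at 9.98 and 10.54 in Car6-/- tracheas 1 and 2, against 6.29 to 7.25 in the other Car6-/- tracheas and 6.36 to 6.91 in wild-type tracheas. Adipocyte markers, 7 of 7 higher in the mean, stood at 6.76 to 9.01 in Car6-/- trachea and 6.73 to 7.24 in wild-type trachea. B cell markers, 4 of 4 tested higher with a median difference of 1.64, stood at 5.46 to 9.76 in Car6-/- trachea, highest in trachea 2, and at 5.13 to 5.53 in wild-type trachea. Cardiac muscle markers, 4 of 5 tested higher with a median of 1.81, stood at 7.24 to 12.92 in Car6-/- trachea, highest in trachea 1, and at 7.19 to 7.62 in wild-type trachea. Smooth muscle markers, 6 of 7 higher with a median of 0.86, stood at 8.34 to 9.63 in Car6-/- trachea and 8.07 to 8.50 in wild-type trachea. Lower in the mean were all 8 markers of basal epithelium (median -0.98) and all 6 of cartilage (median -0.78). None of these marker genes was called between the genotypes in trachea. Skeletal muscle markers stood at 9.16 in Car6-/- lung 5 and 7.19 in wild-type lung 6, against 4.97 to 5.58 in the other Car6-/- lungs and 5.20 to 5.83 in the other wild-type lungs.

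Levels are background-corrected, quantile-normalized log2 intensities, and differences are Car6-/- minus wild type on that scale unless another pair is named. A level is compared only within 1 probe. In whole tissue, more RNA per cell and more cells of a type cannot be told apart. Of the 13 probes, 10 were detected in all 28 samples. ILMN_2800446 of Dnaja1 was detected in 12 of 28, and a further probe each of Hsp90aa1 (ILMN_2662557) and Dnaja1 (ILMN_1229424) in 0 of 28. A gene was called at a limma adjusted p under 0.05 (Benjamini-Hochberg over all genes tested).

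**Figure D2:**
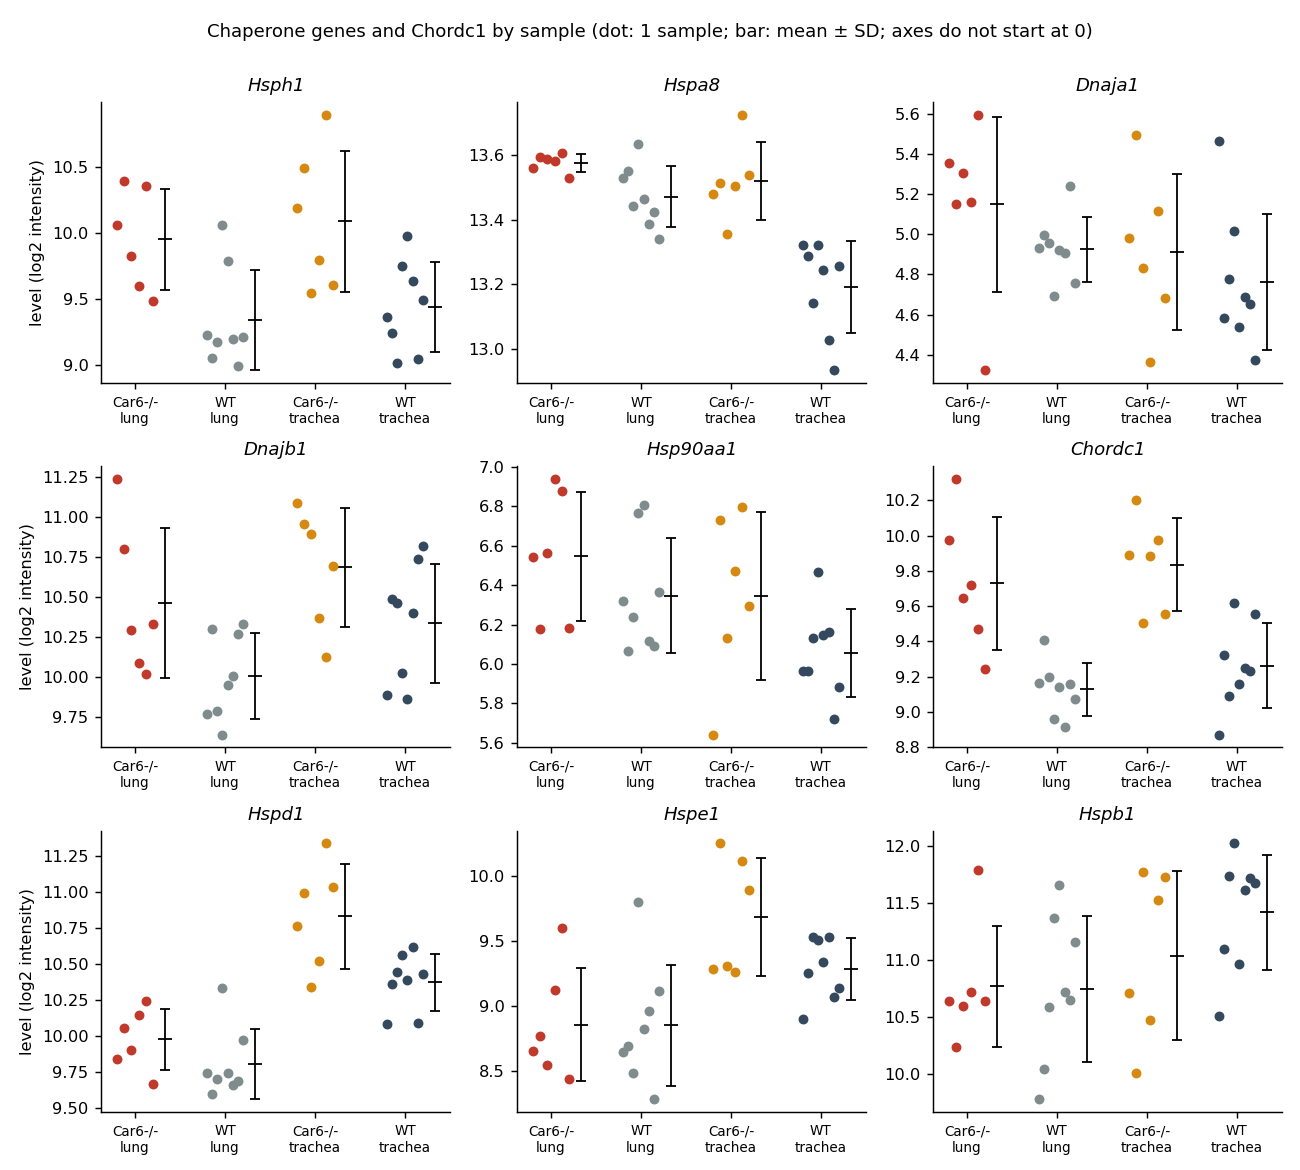
Level of each gene (log2 intensity) in every sample of the 4 groups, 1 dot a sample, with the mean ± SD beside it. Chordc1 and Hsph1 sit higher in Car6-/- samples of both tissues with some overlap, and the Hspa8 dots of Car6-/- trachea all lie above those of wild-type trachea.

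The first comparison asks how these genes stood in lung without Car6. All 9 measured genes had a higher mean in Car6-/- than in wild-type lung, the median difference was 0.20, and none was called. That median was 0.11 without background correction, 0.13 with the authors' normalized table and 0.12 without the 2 lungs of highest skeletal muscle markers. Chordc1 and Hsph1 had the largest differences, 0.60 and 0.62, which are 1.52-fold and 1.53-fold. Hspe1 and Hspb1 were nearly level, at 0.0059 and 0.024. Over all 9417 genes tested in lung, 48.8% lay higher, the median difference was -0.0030, and 2 genes, or 0.0212%, were called.

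In the HSP70 system, Hsph1 (ILMN_2716098), the exchange factor HSP110, had levels of 9.49, 9.94 and 10.40 in Car6-/- lung (lowest, median, highest), against 8.99, 9.21 and 10.06 in wild-type lung. All 6 Car6-/- lungs lay above the wild-type mean, and the groups overlapped through wild-type lungs 4 and 5. The difference was 0.62 ± 0.18 (SE, 95% interval 0.23 to 1.00, limma adjusted p = 0.235). Hspa8 encodes HSC70, the constitutive cytosolic HSP70, and its brighter probe ILMN_1260103 stood at 13.53, 13.58 and 13.61 in Car6-/- lung, against 13.34, 13.45 and 13.64 in wild-type lung. The 6 Car6-/- lungs spread over a narrow band within the wild-type range, apart by 0.11 ± 0.059 in the mean (adjusted p = 0.61), or by 0.27 with median scaling of the arrays. That probe is among the brightest of the array: its raw intensity ran from 7871.6 to 13868.2, where the highest signal of an array was 11794.6 to 21264.4. The dimmer Hspa8 probe, ILMN_2918479, gave 10.60, 10.76 and 11.31 in Car6-/- lung and 9.67, 10.55 and 10.72 in wild-type lung. Its difference was larger, 0.50 ± 0.18, and not called either (adjusted p = 0.368, with every probe tested), so that the 2 probes give different sizes for 1 gene.

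Dnajb1 (ILMN_1240323) encodes an HSP40 J protein that starts the HSP70 cycle. Its levels were 10.02, 10.31 and 11.24 in Car6-/- lung, against 9.64, 9.98 and 10.33 in wild-type lung. Every Car6-/- lung was above the wild-type mean, with Car6-/- lungs 1 and 2 above all wild-type lungs, and the difference was 0.46 ± 0.17 (adjusted p = 0.39), or 0.30 without Car6-/- lung 1. Dnaja1, another J protein, was near the detection limit, with its probe ILMN_2800446 detected in 5 of 6 Car6-/- lungs and 3 of 8 wild-type lungs. It stood at 4.32, 5.23 and 5.59 in Car6-/- lung and 4.69, 4.93 and 5.24 in wild-type lung (difference 0.22 ± 0.15, adjusted p = 0.683). Car6-/- lung 7 was the lowest of all lungs for this probe, and the Dnaja1 difference was 0.39 without it (adjusted p = 0.0997), 0.13 without Car6-/- lung 6, and 0.068 without background correction.

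In the HSP90 system, Chordc1 (ILMN_1247694), an HSP90-binding protein, gave 9.24, 9.68 and 10.32 in Car6-/- lung, against 8.92, 9.15 and 9.41 in wild-type lung. The first 5 Car6-/- lungs, 1, 2, 4, 5 and 6, lay above every wild-type lung, and Car6-/- lung 7 lay within the wild-type range. The difference was 0.60 ± 0.13 (95% interval 0.32 to 0.88, limma adjusted p = 0.116). Without Car6-/- lung 7 it was 0.70 and passed the threshold (limma adjusted p = 0.0208), a setting in which 34 of the 9417 genes tested were called. Hsp90aa1 (ILMN_2752883), the inducible cytosolic HSP90, stood at 6.18, 6.55 and 6.94 in Car6-/- lung and 6.07, 6.28 and 6.80 in wild-type lung, with overlapping groups and a difference of 0.20 ± 0.15 (adjusted p = 0.738). It was 0.12 without Car6-/- lung 5, 0.089 without the 2 lungs of highest skeletal muscle markers and 0.11 without background correction or with the authors' normalized table.

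The mitochondrial chaperonin is built of HSP60, encoded by Hspd1, and its lid HSP10, encoded by Hspe1. Hspd1 (ILMN_2713841) stood at 9.67, 9.98 and 10.24 in Car6-/- lung, against 9.60, 9.72 and 10.33 in wild-type lung, a difference of 0.17 ± 0.12 (adjusted p = 0.689). Its other probe, ILMN_2639036, gave 0.25 ± 0.17. Hspe1 (ILMN_2960308) had levels of 8.44, 8.71 and 9.60 in Car6-/- lung and 8.29, 8.76 and 9.80 in wild-type lung, so that the medians lay in the opposite order to the means. Hspb1 (ILMN_2706269), a small heat shock protein that holds unfolded clients, spread from 10.24 over a median of 10.64 to 11.79 in Car6-/- lung, and from 9.78 over 10.68 to 11.66 in wild-type lung. For neither was a genotype difference detectable, with 95% intervals of -0.44 to 0.45 for Hspe1 and -0.56 to 0.61 for Hspb1.

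At an unadjusted p under 0.05, 3 of the 9 genes (Hsph1, Chordc1, Dnajb1) were higher and 0 lower in Car6-/- lung, where 9.39% of all genes tested reached that limit in either direction. In none of the 9 did every Car6-/- lung lie above every wild-type lung, which held for 0.117% of all genes tested. Without the lungs of the highest skeletal muscle marker level (Car6-/- lung 5 and wild-type lung 6), 8 of 9 genes were higher with the median of 0.12 given above, Hsph1 at 0.67, Chordc1 at 0.57, Dnajb1 at 0.53, Hsp90aa1 at 0.089 and Hspe1 at -0.032. Leaving out 1 lung at a time left 7 to 9 of the 9 genes higher.

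In trachea the question was the same. Of the 8 genes tested, 7 had a higher mean in Car6-/- than in wild-type trachea, Hspb1 a lower one, the median difference was 0.38, and none was called. Hsph1 stood 1.57-fold, Chordc1 1.49-fold, Hspd1 1.37-fold and Hspa8 1.26-fold higher in the mean. Of all 9736 genes tested in trachea, 56.1% lay higher with a median of 0.037. limma called 0 genes (0%), and 17.2% had an unadjusted p under 0.05.

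Hsph1 had levels of 9.54, 9.99 and 10.90 in Car6-/- trachea, against 9.01, 9.43 and 9.98 in wild-type trachea. The 6 Car6-/- tracheas were above the wild-type mean, Car6-/- tracheas 1, 2 and 6 were above every wild-type trachea, and the difference was 0.65 ± 0.22 (SE, 95% interval 0.18 to 1.12, limma adjusted p = 0.183). Without Car6-/- tracheas 1, 2, 6 and 7, those with low thyroid markers, only Car6-/- tracheas 4 and 5 were left and the Hsph1 difference was 0.23. Hspa8 gave 13.35, 13.51 and 13.73 in Car6-/- trachea by its brighter probe, against 12.93, 13.25 and 13.32 in wild-type trachea. All 6 Car6-/- tracheas lay above all 8 wild-type tracheas, as for 0.144% of the genes tested, and the difference was 0.33 ± 0.092 (limma adjusted p = 0.151), or 0.17 with median scaling. The dimmer Hspa8 probe did not separate the groups, with 10.40, 11.29 and 11.77 in Car6-/- trachea and 10.76, 11.10 and 11.44 in wild-type trachea (0.13 ± 0.18, adjusted p = 0.75). Car6-/- trachea 7 was the lowest trachea for that probe and the second highest for the brighter one.

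Dnajb1 stood at 10.12, 10.79 and 11.08 in Car6-/- trachea, against 9.86, 10.43 and 10.82 in wild-type trachea, with groups that overlapped over most of their range (0.35 ± 0.19, adjusted p = 0.366, and 0.18 without Car6-/- tracheas 1 and 2). Dnaja1 passed the detection limit in 2 tracheas of each genotype and was not tested there. Chordc1 had 9.50, 9.89 and 10.20 in Car6-/- trachea, against 8.87, 9.24 and 9.62 in wild-type trachea. The 2 lowest Car6-/- tracheas, 4 and 7, fell within the wild-type range and the other 4 above it, with a difference of 0.57 ± 0.14 (95% interval 0.28 to 0.87, limma adjusted p = 0.151). Without the 4 tracheas of low thyroid markers the Chordc1 difference was 0.43 ± 0.19. Hsp90aa1 lay at 5.64, 6.38 and 6.80 in Car6-/- trachea, against 5.72, 6.05 and 6.47 in wild-type trachea (0.29 ± 0.17, adjusted p = 0.402), Car6-/- trachea 1 being the lowest of all, and the difference was 0.15 with the authors' normalized table.

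Both chaperonin genes had a higher mean in Car6-/- trachea. Hspd1 had 10.34, 10.88 and 11.33 in Car6-/- trachea, against 10.08, 10.41 and 10.62 in wild-type trachea. Car6-/- tracheas 1, 2, 6 and 7 were above every wild-type trachea, and the difference was 0.46 ± 0.15 (limma adjusted p = 0.17). Hspe1 had 9.26, 9.60 and 10.25 in Car6-/- trachea and 8.90, 9.29 and 9.53 in wild-type trachea (0.40 ± 0.18, adjusted p = 0.271). The 3 highest, Car6-/- tracheas 2, 6 and 7, are among the 4 with low thyroid markers, and without those 4 the differences were 0.059 for Hspd1 and 0.0016 for Hspe1. What the differing tissue makeup contributes was not tested.

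Hspb1 ran against the others, with 10.00, 11.12 and 11.77 in Car6-/- trachea, against 10.50, 11.64 and 12.02 in wild-type trachea, but the groups overlapped (-0.38 ± 0.31, adjusted p = 0.533). The Hspb1 difference was -0.17 without Car6-/- trachea 2 and -0.041 without Car6-/- tracheas 1 and 2. Of all 9736 genes tested in trachea, 907 were higher and 767 lower at an unadjusted p under 0.05, together the 17.2% given above. Among the 8 genes described here, 5 (Hsph1, Chordc1, Hspa8, Hspd1, Hspe1) were higher and 0 lower in Car6-/- trachea at that limit. Leaving out Car6-/- trachea 4 alone brought 3 of them past the threshold. These were Chordc1 at 0.64 (limma adjusted p = 0.0251), Hspd1 at 0.56 (limma adjusted p = 0.036) and Hspa8 at 0.36 (limma adjusted p = 0.0409). In that setting 698 of all 9736 genes tested were called, 372 higher and 326 lower. It left Car6-/- trachea 5 as the only Car6-/- trachea without low thyroid markers. Under every other single omission the 8 genes stayed uncalled. The count of 7 of 8 higher was the same without any 1 trachea and without Car6-/- tracheas 1 and 2. It was also the same without Car6-/- tracheas 1, 2, 6 and 7, a setting that left only Car6-/- tracheas 4 and 5. There the 7 included Hspd1 at 0.059 and Hspe1 at 0.0016, and the median difference was 0.23, against 0.38 with all tracheas.

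**Figure D3:**
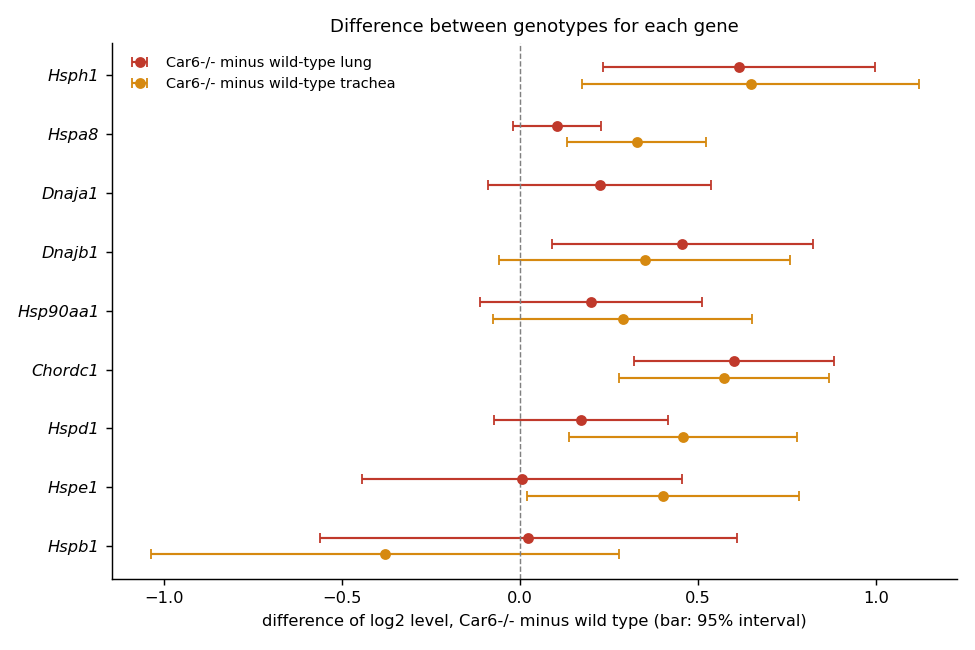
Difference of log2 level between Car6-/- and wild-type mice for each gene in lung (red, upper) and trachea (orange, lower), with 95% intervals from limma. Hsph1 and Chordc1 lie near 0.6 in both tissues, Hspd1 and Hspe1 lie further right in trachea, Hspb1 lies left of 0 in trachea, and Dnaja1 was tested in lung only.

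Whether the genotype difference itself differed between the tissues was tested in 1 model of the 4 groups. None of the 9 genes was called, and neither was any of the 10532 genes tested (0%), of which 13.7% had an unadjusted p under 0.05. Dnaja1 entered this model with its probe detected in 2 tracheas of each genotype, so its trachea values lie mostly under the detection limit. For Hsph1 the trachea difference exceeded the lung difference by 0.033 (95% interval -0.58 to 0.65), and for Chordc1 by -0.028 (95% interval -0.43 to 0.38). The Hsph1 interval leaves room for a gap in either direction about as large as its genotype differences, and the Chordc1 interval for a smaller one. Hspa8 alone had an unadjusted p under 0.05, with a gap of 0.22 ± 0.099 (limma unadjusted p = 0.0325, adjusted p = 0.314), and with median scaling of the arrays the gap was -0.10. Its dimmer probe gave -0.37 ± 0.27. The gaps of Hspd1 (0.29 ± 0.19), Hspe1 (0.40 ± 0.29) and Hspb1 (-0.40 ± 0.44) were under 2 standard errors.

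The level of each gene in the tissues without the knockout was compared between wild-type trachea and wild-type lung. Hspd1, Hspe1 and Hspb1 were higher in wild-type trachea, Hspa8 (brighter probe) and Hsp90aa1 lower, and Hsph1, Chordc1 and Dnajb1 were not called. So 5 of 8 genes were called, where 68.3% of the 10019 genes tested were, and the count is read against that share. Hspd1 was higher by 0.57 ± 0.11, with 10.08 to 10.62 in wild-type trachea against 9.60 to 10.33 in wild-type lung (limma adjusted p = 0.000174), and its other probe by 0.87 ± 0.16. Hspe1 was higher by 0.43 ± 0.17 (adjusted p = 0.0332) and Hspb1 by 0.67 ± 0.26 (adjusted p = 0.0311). These 2 calls ended without wild-type lung 1, 2 or 3 or wild-type trachea 3, 4 or 6, that of Hspe1 also without wild-type lung 7, and that of Hspb1 also without wild-type trachea 7 or 8. Both ended as well when dim probes were kept in the test (adjusted p = 0.0551), and that of Hspe1 with first arrays only and with median scaling. The Hsp90aa1 difference was -0.29 ± 0.13 (adjusted p = 0.0488), a call that ended without wild-type lung 1, 3, 4, 5 or 8 or any wild-type trachea but trachea 4, without background correction, with dim probes kept, with first arrays only and with array weights. Dnajb1 stood at 0.33 ± 0.15 (adjusted p = 0.0643) and was called without wild-type lung 2 or 8 or wild-type trachea 1, 4 or 5 (adjusted p = 0.0253 to 0.048).

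The Hspa8 probes disagreed between the tissues. By the brighter probe wild-type tracheas, at 12.93 to 13.32, all lay below wild-type lungs, at 13.34 to 13.64 (difference -0.28 ± 0.072, limma adjusted p = 0.00223). By the dimmer probe wild-type tracheas, at 10.76 to 11.44, all lay above wild-type lungs, at 9.67 to 10.72 (difference 0.75 ± 0.16, limma adjusted p = 0.00055). Groups that do not overlap were found for 36.6% of the genes tested. With median scaling the difference by the brighter probe was -0.010 and no longer called. No direction between the tissues is therefore given for Hspa8.

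In the order of the group means, Hsph1 ran from 10.09 ± 0.54 in Car6-/- trachea (SD, n = 6) and 9.95 ± 0.38 in Car6-/- lung (n = 6) to 9.44 ± 0.34 in wild-type trachea (n = 8) and 9.34 ± 0.38 in wild-type lung (n = 8). Chordc1 had the same order, at 9.83 ± 0.26, 9.73 ± 0.38, 9.26 ± 0.24 and 9.13 ± 0.15. For both genes the tissues of 1 genotype lay closer than their SDs, and the genotypes of 1 tissue lay further apart than the SD of either. For Hspd1 the order went by tissue, with 10.83 ± 0.36 in Car6-/- trachea and 10.37 ± 0.20 in wild-type trachea above 9.98 ± 0.21 in Car6-/- lung and 9.80 ± 0.24 in wild-type lung.

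The wider chaperone network was read from 7 lists of partner genes. In lung, all 13 measured HSP70 co-chaperone genes were higher in Car6-/- mice in the mean (median 0.17), 11 of 15 HSP90 co-chaperone genes (median 0.12), 5 of 6 other HSP70 family genes (median 0.11) and 6 of 7 subunits of the cytosolic chaperonin TRiC (median 0.085). None of the genes in the 7 lists was called in lung, against 0.0212% of all genes. The HSP70 co-chaperones with the smallest p were Dnaja3, a mitochondrial J protein (0.30 ± 0.076), Bag3, an exchange factor that links HSP70 to autophagy (0.31 ± 0.088), and Dnajb2 (0.29 ± 0.093). Among the HSP90 partners, Ahsa2, related to the ATPase activator AHA1, stood at 0.44 ± 0.089 (limma adjusted p = 0.0895). It lay above every wild-type lung in all 6 Car6-/- lungs, as for 0.117% of the genes tested. Stip1, the adaptor HOP that joins HSP70 to HSP90, stood at 0.40 ± 0.12 and Cdc37l1 at 0.18 ± 0.065. Hspa1a, the heat-inducible HSP70, had the largest difference of its list, 1.30 ± 0.47, with 7.56 ± 1.47 in Car6-/- lung (SD, n = 6) and 6.26 ± 0.47 in wild-type lung (n = 8; limma adjusted p = 0.356). Its copy Hspa1b is nearly identical, so that the signal may come from either gene.

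The list of HSF1 and its regulators, which holds related factors and their binding proteins, did not share this direction. In lung 1 of its 3 measured genes was higher (median -0.079), with Hsf4 at -0.19 ± 0.080. Other organelle chaperones were split, 4 of 7 higher with a median of 0.012, Hspa5 of the endoplasmic reticulum standing at 0.22 ± 0.12. Of 5 small heat shock protein genes 1 was higher (median -0.048), and Hspb7, a small heat shock protein of muscle and heart, stood at -1.35 ± 0.32 (limma adjusted p = 0.116), with 3 Car6-/- lungs and all 8 wild-type lungs above the detection limit. Cardiac muscle markers ran from 8.28 to 10.01 in Car6-/- lung and from 7.08 to 11.30 in wild-type lung, 0 of 7 higher in Car6-/- lung, and their part in the Hspb7 value was not tested.

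In trachea the lists went apart. In the list of HSF1 and its regulators, 2 of 3 measured genes were higher (median 0.0053). HSP70 co-chaperones were higher for 9 of 14 genes (median 0.055), HSP90 co-chaperones for 9 of 16 (median 0.041), other HSP70 family genes for 4 of 7 (median 0.23, Hspa1l at -0.81 ± 0.31 and Hspa12b at 0.56 ± 0.22), TRiC subunits for 4 of 7 (median 0.043) and other organelle chaperones for 4 of 7 (median 0.19). Bag4 stood at 0.40 ± 0.12, Bag2 at -0.44 ± 0.15, Ahsa2 at 0.40 ± 0.15, the collagen chaperone gene Serpinh1 at 0.62 ± 0.21 and the mitochondrial exchange factor gene Grpel1 at 0.36 ± 0.13, none of them called. All 6 small heat shock protein genes were lower in the mean, with a median of -0.73. Hspb6 stood at -0.81 ± 0.21, Hspb7 at -2.38 ± 0.64 and Hspb3 at -1.26 ± 0.39 (limma adjusted p = 0.151 to 0.153). All of these are known from muscle, and the 15 skeletal muscle markers were lower as well, with a median of -1.80 and levels of 6.50 to 11.80 in Car6-/- trachea, against 11.65 to 12.68 in wild-type trachea. HSP90 partners known from muscle lay lower too, Itgb1bp2 (melusin), a CHORD-domain relative of Chordc1, standing at -0.88 ± 0.27 and the myosin chaperone gene Unc45b at -0.45 ± 0.21. The part of muscle RNA in these values was not tested.

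**Figure D4:**
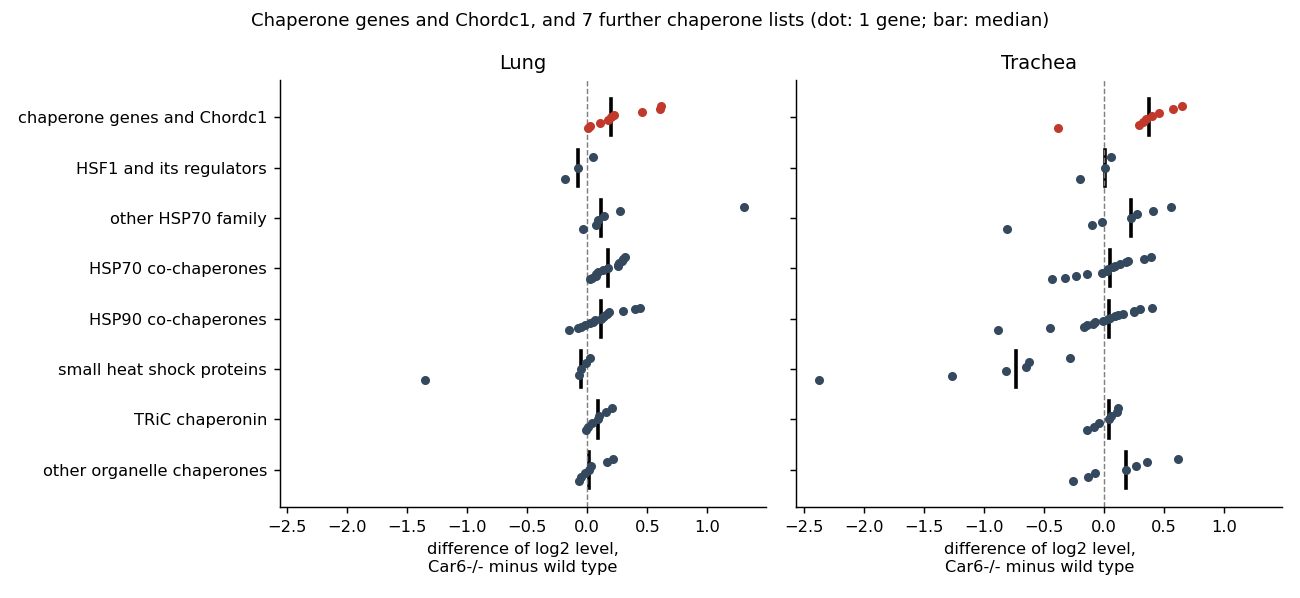
Difference of log2 level (Car6-/- minus wild type) for each measured gene of the chaperone set (red) and of 7 partner lists (blue), 1 dot a gene, black bar the median, in lung (left) and trachea (right). HSP70 co-chaperones all lie right of 0 in lung, and small heat shock proteins all lie left of 0 in trachea.

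Genes of the circadian clock, which vary with the time of day, and immediate early genes, which respond to handling within minutes, were set beside the chaperones. In lung, 3 of 13 clock genes were higher and the median was -0.45, with Arntl, the clock activator BMAL1, at 1.28 ± 0.25 (limma adjusted p = 0.0851), the deubiquitinase gene Usp2 at -0.52 ± 0.13 and Clock at 0.34 ± 0.095. In trachea, 4 of 12 were higher and the median was -0.38, with the repressor gene Nfil3 at 1.08 ± 0.25, the output gene Dbp at -1.06 ± 0.27 and Arntl at 0.80 ± 0.20 (limma adjusted p = 0.151 for each). Immediate early genes were higher for 9 of 11 in lung (median 0.11, Dusp1 at 0.34 ± 0.16) and 8 of 11 in trachea (median 0.16, Egr2 at 0.64 ± 0.21). None of the clock or immediate early genes was called in either tissue. At a limma unadjusted p under 0.05, 3 clock genes were higher and 8 lower in lung, and 2 higher and 5 lower in trachea. Of the immediate early genes, 0 reached that limit in lung and 2, both higher, in trachea. Over all genes tested the share was 9.39% in lung and 17.2% in trachea. Whether the chaperone values go with time of day or handling was not tested, and the labels give no time of sampling.

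Within the groups the chaperones did not all vary together. After subtracting each group's mean, 25 of 36 gene pairs correlated above 0 over the 14 lungs, with a median Pearson r of 0.20, and 20 of 28 over the 14 tracheas, with a median of 0.26. These are descriptions over samples that share the array normalization. Hspd1 and Hspe1, the genes of the shared promoter above, were the closest pair in both tissues, with r = 0.89 and rho = 0.71 in lung (r = 0.69 without the 2 samples farthest out in Hspd1) and r = 0.85 and rho = 0.87 in trachea (r = 0.84 without 2). Hsph1 and Chordc1, which had the largest differences between genotypes, went together less within groups. They had r = 0.19 and rho = 0.095 in lung and r = 0.56 and rho = 0.62 in trachea. Without the 2 samples farthest out in Hsph1, their r was 0.42 in lung and 0.74 in trachea. Dnajb1 ran opposite to Hsp90aa1, with r = -0.50 in lung and -0.60 in trachea (-0.46 and -0.41 without the 2 samples farthest out in Hsp90aa1). That was not particular to this pair. In lung and trachea, Dnajb1 had r = -0.35 and -0.60 with Hspa8, -0.40 and -0.22 with Hspd1, and -0.42 and -0.15 with Hspe1. With Hsph1 it had -0.10 and -0.44, with Hspb1 -0.30 and 0.12, with Chordc1 0.59 and 0.17, and with Dnaja1 0.12 in lung.

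**Figure D5:**
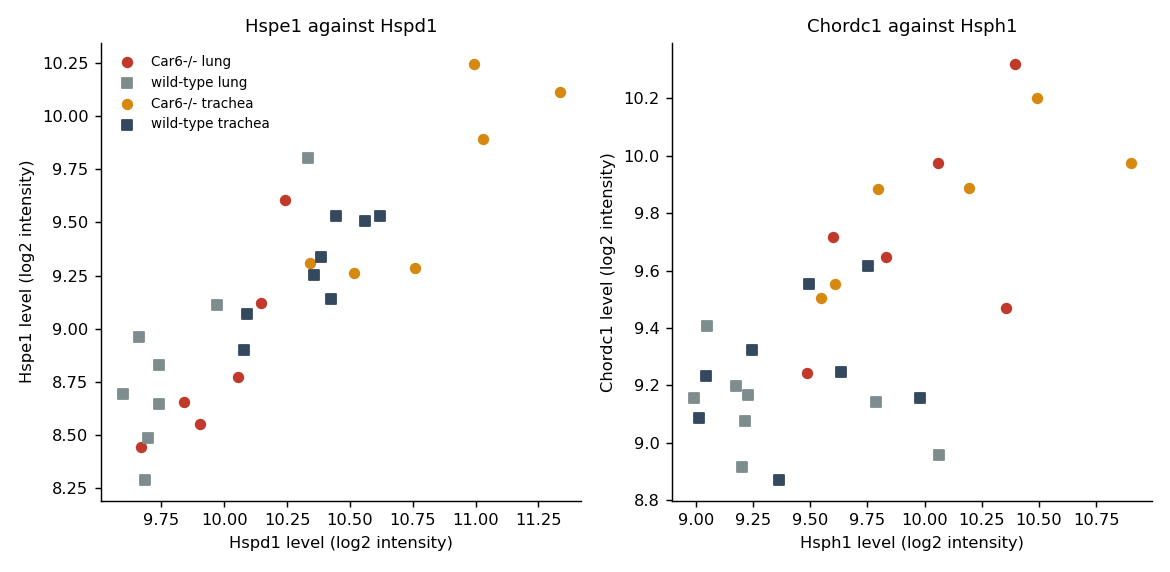
Levels (log2 intensity) of Hspe1 against Hspd1 (left) and of Chordc1 against Hsph1 (right), 1 symbol a sample, circles for Car6-/- and squares for wild-type mice. Hspd1 and Hspe1 lie along 1 line over both tissues. Most Car6-/- samples lie toward the upper right of the Hsph1 and Chordc1 plot. Car6-/- lung 7 and Car6-/- tracheas 4 and 7 lie within the wild-type range of both genes in their tissue.

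The genes most like Hsph1 and Chordc1 were sought over the 14 samples of each tissue by the Pearson correlation of levels less the group mean. Named are the 5 highest among 9417 genes tested in lung and 9736 in trachea. Picking the highest of so many over 14 samples gives high values by itself, so they are descriptions only. For Hsph1 in lung these genes were Cd81 (r = 0.82), Stip1 (0.79), Heca (0.79), Dnaja4 (0.78) and Ttc33 (0.77). Their rho ran from 0.57 (Heca) to 0.82 (Ttc33), and Stip1 and Dnaja4 belong to the partner lists above. For Hsph1 in trachea they were Irak3 (0.91), Ahcyl2 (0.89), an unnamed probe (ILMN_2875730, 0.87), Nipa2 (0.86) and Epas1 (0.86). For Chordc1 in lung they were Gfod2 (0.87), 0610040J01Rik (0.85), Gch1, Ildr1 and an unnamed probe (ILMN_3084954, 0.83 each). In trachea they were Myo7a (0.88), Rassf2 (0.79), Hnrnpf (0.79), E430018J23Rik (0.78) and an unnamed probe (ILMN_3153753, 0.76). None of these genes stood on the list of both tissues, or on that of both Hsph1 and Chordc1.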

How the data were processed

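The table used was deposited by the authors as raw probe intensity (1 mean signal per probe and array, linear scale, not normalized) with, per the file headers, a detection p-value beside each signal, and a second table of log2 values that equal log2 of the intensity after quantile normalization within each tissue, as recomputed here. The scanner software is not given in these sources. Background was corrected by the normexp model of limma 3.58.1 (nec with the detection p, offset 16; R 4.3.3), arrays were quantile-normalized together and logged, and 2 arrays of a sample were averaged. A probe was tested if 6 or more of the samples compared had a detection p under 0.01, and the probe of highest mean stood for its gene symbol. Linear models were fitted with lmFit and eBayes over all genes, and adjusted p-values are Benjamini-Hochberg values over all genes tested. The procedure was run on simulated data with independent noise in every gene and sample. Such data lack the marker differences between samples given above, so that run does not bear on them. The labels do not state separate animals or extractions, so p-values measure the spread between these samples. The number of arrays limits the precision.

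The genes, partner lists and marker lists were chosen with earlier results of these data known. Named are all 9 measured genes, up to 3 genes with the smallest p of each partner list, and the 5 genes most like Hsph1 and Chordc1. Promoters are RefSeq windows (GRCm38.p6), and probe positions were not used here. Alternatives tried were median scaling, no background correction, the authors' table, no detection filter, every probe as a feature and first arrays only. Others were array weights, a block for the sample number and omitted samples. The labels do not link Car6-/- and wild-type samples of equal number, which the block joined in the genotype comparisons.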

Additional observations from a re-analysis of the deposited data

Results flagged for a closer look

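Over the 13 probes in 4 groups, 52 sets of samples were checked for a sample far from the others by Dixon's criterion, which chance alone meets in about 1 set in 20, and 2 met it. Dnaja1 (ILMN_2800446) stood at 4.32 in Car6-/- lung 7, against 5.15 in the next lowest Car6-/- lung, and without that lung its genotype difference was 0.39, against 0.22 with it. Hspb1 stood at 11.79 in Car6-/- lung 6, against 10.71 in the next highest Car6-/- lung, and without that lung its genotype difference was -0.18.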

How the results depend on the processing

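In lung, 2 genes of the array were called, and 0 with median scaling, with every probe as a feature or with first arrays only. The count was also 0 with the sample number as a replicate block and without the 2 lungs of highest muscle markers. It was 5 without background correction and with the authors' table, 6 with array weights, and 0 to 34 with 1 lung left out (34 without Car6-/- lung 7). In trachea, 0 became 1 with the replicate block and 0 to 698 with 1 trachea left out (698 without Car6-/- trachea 4). For the difference between tissues, 0 became 73 with array weights and 0 to 672 with 1 sample left out (672 without Car6-/- trachea 4, 209 without Car6-/- trachea 5). Of the chaperones, the lung value of Hspe1 was -0.018 with first arrays, -0.011 with the replicate block and -0.032 without the 2 lungs. The gap between tissues was -0.10 for Hspa8 with median scaling, and -0.44 for Hsph1 and -0.058 for Hspd1 without the 6 samples with unusual marker levels. With median scaling, wild-type trachea minus wild-type lung was -0.074 for Hsph1 and -0.041 for Chordc1. With 1 sample left out, lung differences ran from -0.14 to 0.14 for Hspe1 and from -0.18 to 0.15 for Hspb1. Gaps between tissues then ran from -0.13 to 0.14 for Hsph1, -0.13 to 0.090 for Chordc1, -0.0013 to 0.23 for Hsp90aa1, -0.24 to 0.035 for Dnaja1 and -0.19 to 0.050 for Dnajb1. Dnaja1 was under the detection limit in most tracheas. The causes were not tested. Hsph1 kept its sign in all 23 lung and 24 trachea alternatives (0.53 to 0.72 and 0.23 to 0.76), and so did Chordc1 (0.48 to 0.70 and 0.43 to 0.64). Sample numbers were not taken to pair samples, since not every same-numbered pair deviated together. Correlations were above 0.1 in 0 of 6 lung pairs and 3 of 6 trachea pairs of Car6-/- and wild type (-0.19 to 0.55 in trachea). For trachea and lung of 1 number, they were above 0.1 in 1 of 6 Car6-/- and 0 of 8 wild-type pairs. A shared animal is not thereby settled. The replicate block brought no chaperone past the threshold in either genotype comparison, and Dnajb1 past it between wild-type tissues (0.33, limma adjusted p = 0.00922). Omissions by marker level were chosen after the data were seen.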

Other observations

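Cirbp, a cold-inducible RNA-binding protein whose RNA is known to fall when temperature rises, was looked at after its values were seen. It stood at 6.54, 6.90 and 7.27 in Car6-/- lung (lowest, median, highest), against 7.11, 7.43 and 7.89 in wild-type lung. In trachea it stood at 6.28, 6.62 and 7.06 in Car6-/- mice, against 6.71, 7.12 and 7.66 in wild-type mice. The difference was -0.52 ± 0.13 (SE) in lung (limma adjusted p = 0.151) and -0.52 ± 0.18 in trachea (limma adjusted p = 0.181). Neither passed the threshold. Since Cirbp was picked by its values, these are descriptions only, and a link to temperature was not tested. Rbm3, the other cold-inducible gene examined, stood at -0.18 ± 0.12 in lung and -0.25 ± 0.19 in trachea.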
